A study of Mus musculus with 24 samples.

Results

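Actively translated mRNA of the normal mouse nucleus accumbens (Acb) was compared with that of the dorsal striatum (DS). The members were chosen by label: the heavy polysomal libraries of wild-type mice, 3 from Acb and 3 from DS, which are 6 of the 24 libraries of the series. Heavy polysomes are the fractions at the bottom of a sucrose gradient, here mRNAs carrying 4 or more ribosomes by the methods text and more than 4 by the sample labels, so a read count reflects both how much of an mRNA a tissue holds and how much of it is loaded on polysomes. The series also holds whole lysates of the same tissue and both kinds of library from rpS6P-/- mice, a knockin in which the phosphorylatable serines of ribosomal protein S6 are replaced by alanine.

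All mice of the 6 libraries were wild-type littermates of the knockin, of a mixed C57Bl/6, Sv129 and ICR background, and the labels name no treatment. Both sexes are named for the colony, and neither age nor sex is given per library. Each library was made from tissue pooled over mice, so the 3 replicates per region measure the spread between pools. The tissue was dissected by hand, with the Acb taken from a coronal slice anterior to the slice that gave the DS, so region and anteroposterior level cannot be told apart. No cell type was sorted. In such bulk tissue, fewer cells of a type and less RNA per cell cannot be told apart.

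The Acb libraries held between 18223208 and 34703044 reads assigned to genes and the DS libraries between 11109431 and 23021073. Of 24079 genes in the table, 6412 had 0 reads in all 6 libraries and 16143 had at least 15 reads in total and were tested. The first principal component, with 63.6% of the variance of 1000 genes, separated the regions, and the second, with 19.6%, set DS replicate 1 apart from the other DS libraries. That library was also the shallowest, with 14468 genes detected, and gene list counts that its removal moved by more than 1.5 times are given without it. The same was done for the other libraries.

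The Acb and the DS are the ventral and dorsal parts of the striatum, the input stage of the basal ganglia. Most neurons of both are GABAergic medium spiny neurons, which carry either the dopamine D1 receptor with the peptides dynorphin and substance P, or the D2 receptor with enkephalin. The dorsal part receives mainly sensorimotor and associative cortical input and dopamine from the substantia nigra. The Acb receives limbic input from hippocampus, amygdala and prefrontal cortex and dopamine from the ventral tegmental area. It lies next to the septum and the olfactory tubercle.

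The difference between the regions covered a minority of genes and was large for few of them. At an adjusted p under 0.05 (edgeR quasi-likelihood test, Benjamini-Hochberg over all tested genes), 1316 genes differed, 8.15% of those tested. Of these, 762 were higher in Acb, 4.72% of the genes tested, and 554 were higher in DS, 3.43%. The median difference of a called gene was 2.03-fold among those higher in Acb and 1.90-fold among those higher in DS. Among genes higher in Acb, 397 differed by more than 1 on the log2 scale, 112 by more than 2 and 56 by more than 3. Among genes higher in DS, the same limits were passed by 252, 81 and 35 genes. The 3 values of each region did not overlap in CPM, the read count divided by a library size scaled by TMM (trimmed mean of M values), for 758 of the 762 genes and 545 of the 554. Among all 12222 genes with at least 50 reads per library on average, 3683 did not overlap, or 30.1%.

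The size of the list depended on the libraries used. Without DS replicate 1, 898 genes were called, 518 higher in Acb and 380 higher in DS. Without Acb replicate 2 the count was 804, and without Acb replicate 3 it was 663, of which 655 were among the 1316 with the same direction. Transcript length moved slightly with the regional difference, with a rank correlation (Spearman rho) of 0.127 over 11956 genes, a description over genes and not over replicates. Removing that trend together with each library's mean deviation gave 1585 calls and turned the split from 57.9% to 32.8% higher in Acb, under which the median log2 fold change of all genes was -0.14 and not 0.03. Directions of small differences are therefore relative to the scaling, and gene groups whose median changes sign under it are named where they are described.

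**Figure D1:**
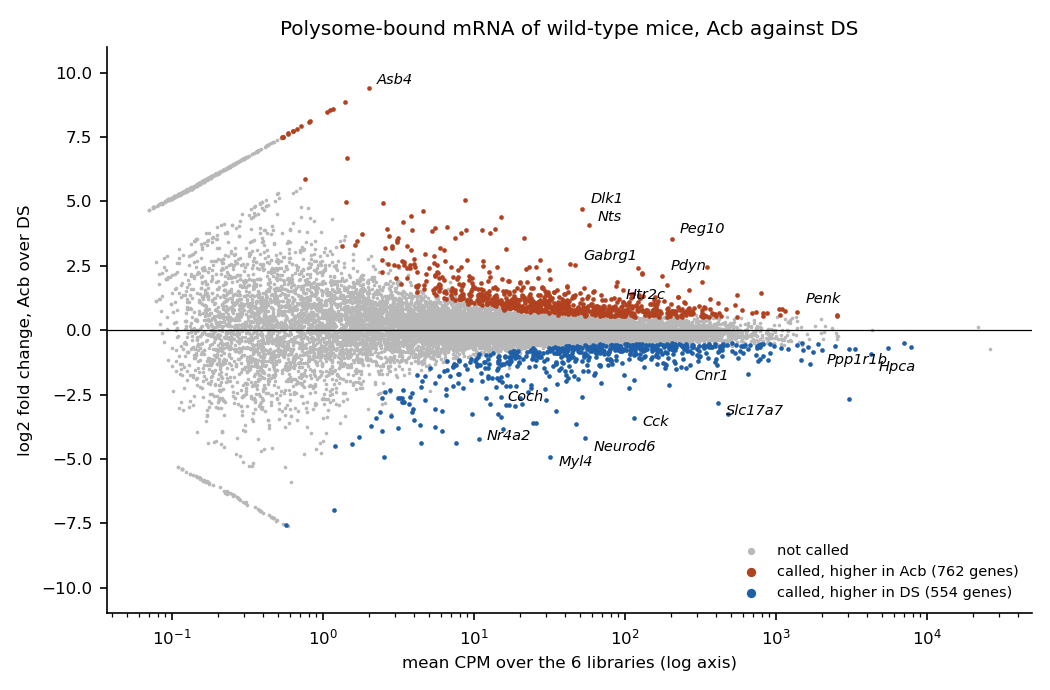
Regional difference of each tested gene, as the log2 fold change of Acb over DS (vertical axis), against its mean CPM over the 6 libraries (horizontal log axis). Coloured points are the 762 genes called higher in Acb and the 554 called higher in DS, grey points the other tested genes, and the labels name genes described in the text.

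Dlk1, Nts and Gal were among the genes with the largest differences toward Acb. Genes picked by size came from called genes whose CPM did not overlap between regions, so that separation follows from the rule. Dlk1, a membrane protein of the Notch ligand family, was at 94.2, 104 and 100.2 CPM in Acb and at 6.29, 3.55 and 2.14 CPM in DS. Every Acb library was far above every DS library, and the log2 fold change was 4.71 ± 0.30 (SE, edgeR adjusted p = 5.51e-08). Nts, which encodes the peptide neurotensin, was at 90.6, 138 and 97.5 CPM in Acb against 6.29, 4.27 and 8.37 CPM in DS, a log2 fold change of 4.09 ± 0.26 (SE, edgeR adjusted p = 5.51e-08). The groups were again separate, with no DS value near the lowest Acb value. Gal, the precursor of galanin, was at 10.8, 12.5 and 27.5 CPM in Acb and at 0.871, 0.869 and 0 CPM in DS, with Acb replicate 3 the highest.

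Asb4, a subunit of ubiquitin ligases known from the hypothalamus, had 124, 70 and 121 reads in the Acb libraries and 0 reads in all 3 DS libraries. Set against a floor of 3 reads over the DS group, it was at least 62.2-fold higher in Acb (edgeR adjusted p = 3.42e-04). Prlr, the prolactin receptor, was at 4.28, 7.69 and 14.4 CPM in Acb and at 0.0968, 1.01 and 0 CPM in DS. Irs4, an insulin receptor substrate, was at 3.72, 6.72 and 11.6 CPM in Acb and under 1 CPM in every DS library. Neither pair of groups overlapped, although for both genes Acb replicate 3 was well above Acb replicate 1.

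The remaining genes of this set were Dgkk, a diacylglycerol kinase, with a log2 fold change of 4.39, Arhgap36, a GTPase-activating family member, with 4.00, and Igsf1, a pituitary-enriched membrane glycoprotein, with 3.97. A730046J19Rik and 1700009P17Rik, for which no role is stated here, had values of 4.93 and 3.92. Igsf1 was at 10.6, 9.19 and 10.9 CPM in Acb and at 0.968, 1.16 and 0 CPM in DS, with little spread in Acb. 1700009P17Rik was the least secure of them, with 3.52, 4.19 and 7.22 CPM in Acb and 0, 0.942 and 0.0436 CPM in DS (edgeR adjusted p = 0.0140). Its adjusted p was 0.055 without DS replicate 3, 0.0607 without Acb replicate 2 and 0.132 without Acb replicate 3 in the same edgeR test.

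Myl4, Tnnc1 and Tcap, which are known from striated muscle, were among the genes with the largest differences toward DS. Myl4, a myosin light chain of embryonic and atrial muscle, was at 66.2, 54.7 and 64.2 CPM in DS and at 2.45, 1.99 and 1.54 CPM in Acb. The groups were wide apart, with a log2 fold change of -4.94 ± 0.25 (SE, edgeR adjusted p = 2.67e-09). Tnnc1, the troponin C of slow and cardiac muscle, was at 22.1, 18.8 and 20.4 CPM in DS and at 0.845, 1.24 and 1.26 CPM in Acb, a log2 fold change of -4.21 ± 0.32 (SE). Tcap, a protein of the sarcomeric Z disc, was at 7.07, 9.71 and 8.63 CPM in DS and below 1 CPM in each Acb library. All 3 genes were even among the DS libraries and low in every Acb library.

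Neurod6 and Neurod2, neuronal basic helix-loop-helix factors, and Emx1, a homeodomain factor of cortical glutamatergic neurons, stood beside them. Neurod6 was at 87.9, 124 and 98.4 CPM in DS and at 10.0, 5.16 and 1.38 CPM in Acb. No DS value came near an Acb value, and the Acb values spread widely. The log2 fold changes were -4.2 for Neurod6, -3.78 for Emx1 and -3.62 for Neurod2. Nr4a2, an orphan nuclear receptor that is induced by activity and is also a known marker of the claustrum and deep cortex, was at 46.8, 51.8 and 45.0 CPM in DS and at 6.08, 2.47 and 2.92 CPM in Acb. Its regional difference was -3.62 ± 0.30 on the log2 scale (SE, edgeR adjusted p = 1.31e-06), and no DS value came near an Acb value.

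The other genes of this direction were Adra1d, an alpha-1 adrenergic receptor, with a log2 fold change of -3.79, Serpinb8, a serine protease inhibitor, with -3.66, and the long noncoding RNAs 9130024F11Rik and C730002L08Rik, with -4.40 and -3.91. Of the 24 genes picked by size, not all of which are named here, 23 kept both direction and call in all 18 alternative analyses, and the exception was 1700009P17Rik.

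**Figure D2:**
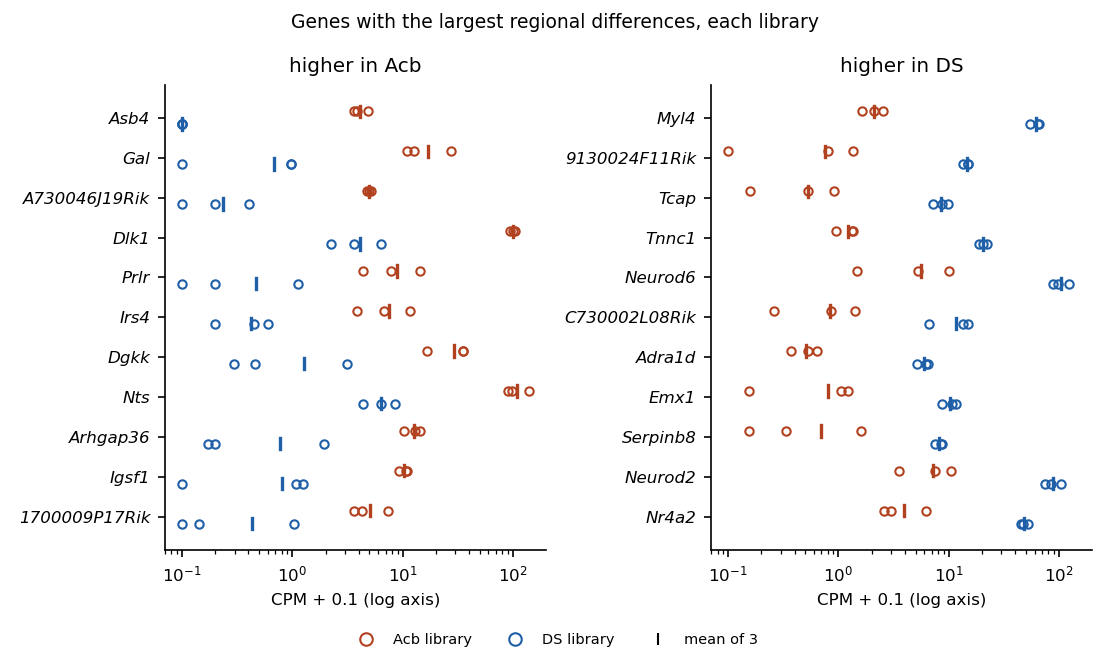
Level of 22 genes with the largest called differences in each of the 6 libraries, as CPM plus 0.1 on a log axis, with 11 genes per direction. Each row is a gene, each point a library coloured by region and each short bar the mean of 3 libraries. The genes were picked among those whose Acb and DS points do not overlap, so this separation follows from the rule.

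Regional markers known from earlier anatomical work were then counted. The lists were chosen with earlier results of these data known, so the counts are a description and no independent check of the regional labels. Of 20 markers of the ventral striatum, 17 were called higher in Acb and none lower, and the median of their log2 fold changes was 2.46 against 0.03 over all tested genes. Crym, a thyroid hormone binding protein, was at 312, 525 and 348 CPM in Acb and at 136, 161 and 108 CPM in DS. Cartpt, the precursor of the peptide CART, was at 54.8, 53.3 and 34.1 CPM in Acb against 7.84, 6.09 and 7.67 CPM in DS. Both genes were separate between regions, with log2 fold changes of 1.55 and 2.72. Wfs1, a protein of the endoplasmic reticulum membrane, was at 165, 274 and 199.7 CPM in Acb and at 44.9, 52.7 and 41.0 CPM in DS, a log2 fold change of 2.21. It was named after its value was seen.

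Gpr101, an orphan receptor, and Calcr, the receptor for calcitonin and amylin, had log2 fold changes of 3.92 and 3.85. The 3 markers not called were Drd3, the dopamine D3 receptor, Oxtr, the oxytocin receptor, and Nexn, an actin-binding protein. Drd3 was detected in all 3 Acb libraries, at 2.06, 1.51 and 1.34 CPM, and in a single DS library at 0.290 CPM, with a log2 fold change of 4.26 ± 1.52 (SE, edgeR adjusted p = 0.104). It was called higher in Acb by DESeq2 (adjusted p = 0.0175), by limma-voom (adjusted p = 0.0360), with all 12 heavy libraries in the edgeR fit (adjusted p = 0.0479) and without DS replicate 1 (edgeR adjusted p = 0.0244), and its adjusted p over all alternatives ranged up to 0.282. Oxtr and Nexn had log2 fold changes of 0.29 and -0.48, and Nexn was called higher in DS under the rescaling for length (edgeR adjusted p = 0.0334).

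Of 15 markers of the dorsal striatum, 6 were called higher in DS and 2 higher in Acb, and the median of their log2 fold changes was -0.45. Cnr1, the cannabinoid receptor of striatal terminals, was at 306, 373 and 439 CPM in DS and at 132, 136 and 142 CPM in Acb. All DS values were above all Acb values, and the log2 fold change was -1.45 ± 0.16 (SE, edgeR adjusted p = 2.77e-05). Coch, a secreted protein of the extracellular matrix, was at 57.4, 56.1 and 58.6 CPM in DS and at 12.8, 16.5 and 10.9 CPM in Acb, so the DS values were nearly equal. Rgs4, which shortens G protein signalling, and Hpca, the calcium sensor hippocalcin, had log2 fold changes of -1.15 and -0.93.

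The 2 dorsal markers that went the other way were Ntn1 and Col6a1. Ntn1, the guidance cue netrin, was at 32.1, 44.2 and 41.4 CPM in Acb and at 8.42, 7.17 and 5.88 CPM in DS, a log2 fold change of 2.46 ± 0.24 (SE, edgeR adjusted p = 5.92e-06). Col6a1, a collagen chain, had a value of 1.83. Their regional difference was opposite to their place on the dorsal list and was large in all 3 replicates. The dorsal list had 8 members called higher in DS without DS replicate 1 and 4 without Acb replicate 1 or Acb replicate 3.

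Most genes that define medium spiny neurons were not called. Of 22 such genes, 5 were called higher in DS and 1 higher in Acb, and the median of their log2 fold changes was -0.23. Ppp1r1b, the phosphatase inhibitor DARPP-32, was at 1574, 1734 and 1379.9 CPM in Acb and at 2439, 2225 and 2049 CPM in DS, a log2 fold change of -0.52 ± 0.15 (SE, edgeR adjusted p = 0.0369). The groups did not overlap but the gap was small beside those above. Rasd2, a striatal small GTPase also known as Rhes, had a log2 fold change of -0.99, Rxrg, a retinoid receptor, -0.90, Foxp1, a forkhead factor, -0.81, and Prkcb, a protein kinase C, -0.75.

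Gad2, which makes GABA for synaptic release, went the other way. It was at 494, 516 and 521 CPM in Acb and at 231, 213 and 222 CPM in DS, a log2 fold change of 1.2 ± 0.14 (SE, edgeR adjusted p = 5.01e-05). Values were nearly constant within each region. The list of 22 kept its negative median in every alternative, and the count called higher in DS ranged from 4 to 10.

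Both classes of projection neuron were present in both regions. Drd1a, the D1 receptor, was at 235, 273 and 292 CPM in Acb and at 204, 183 and 205 CPM in DS. Its log2 fold change of 0.44 ± 0.15 (SE) did not pass the test (edgeR adjusted p = 0.0963), although the values did not overlap. Drd2, the D2 receptor, was at 99.3, 60.4 and 67.9 CPM in Acb and at 106, 72.2 and 101 CPM in DS, with a log2 fold change of -0.29 (edgeR adjusted p = 0.457). The 2 groups of Drd2 values overlapped, and so did those of Adora2a, the adenosine receptor of D2 neurons, with a log2 fold change of -0.08.

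Peptides of the same neurons passed the test where these receptors did not, and the difference between a peptide and a receptor was not tested. Pdyn, the dynorphin precursor of D1 neurons, was at 225, 381 and 245 CPM in Acb and at 81.9, 66.7 and 49.4 CPM in DS, a log2 fold change of 2.11 ± 0.22 (SE, edgeR adjusted p = 1.35e-05). Tac1, the substance P precursor of the same class, was at 578, 591 and 628 CPM in Acb against 412, 279.7 and 323 CPM in DS, with a log2 fold change of 0.83. Penk, the enkephalin precursor of D2 neurons, was at 1438, 2328 and 1367 CPM in Acb against 1162, 1087 and 869 CPM in DS, with a log2 fold change of 0.72 (edgeR adjusted p = 0.0279). All 3 peptides were higher in Acb with no overlap.

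Of 10 genes of D1 neurons, 4 were called higher in Acb (Gpr149, Pdyn, Isl1 and Tac1) and 1 higher in DS, the transcriptional cofactor Eya1, and the median of their log2 fold changes was 0.45. Gpr149, an orphan receptor, and Isl1, a LIM homeodomain factor of D1 neurons, had log2 fold changes of 2.49 and 1.18, and Eya1 had -1.33, which was not called without Acb replicate 1 or Acb replicate 2. Of 10 genes of D2 neurons, Penk alone was called, with a list median of 0.39. The median of the D2 list was -0.24 in the wild-type lysates and 0.22 in the rpS6P-/- polysomes, and these differences were not tested. No gene of the D2 list was called by edgeR without DS replicate 1, without DS replicate 3 or without Acb replicate 2, or under the rescaling for length. None of the 5 dopamine receptor genes was called in the main edgeR fit, with 2 at an unadjusted p under 0.05 and 2 called by DESeq2. In edgeR 1 was called without DS replicate 1, with all 12 heavy libraries in the fit and with a replicate block. Whether a D1 and a D2 gene differed from each other in their regional difference was not tested.

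The striatum is also divided into striosomes, islands rich in mu opioid receptor, and the surrounding matrix. Of 10 striosome genes, 4 were called higher in Acb and 2 higher in DS, with a median of 0.66, against -0.09 in the wild-type lysates. The 4 were Pdyn, Tac1, Lypd1, a modulator of nicotinic receptors, and Tshz1, a zinc finger factor. Oprm1, the defining receptor, was near the limit of detection at 0.676, 1.18 and 0.434 CPM in Acb and at 0, 0 and 0.436 CPM in DS. Khdrbs3, an RNA-binding splicing factor, and Kremen1, a Wnt pathway receptor, were higher in DS with log2 fold changes of -1.32 and -0.82. A single striosome gene was called higher in DS without DS replicate 3 and without any 1 of the Acb libraries. Of 7 matrix genes, Id4 was called higher in Acb and Sv2b and Rasgrp2 higher in DS, and Id4 was not called without Acb replicate 3. The list median of 0.10 changed sign without DS replicate 1 and under the rescaling for length, and it was -0.25 in the wild-type lysates.

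**Figure D3:**
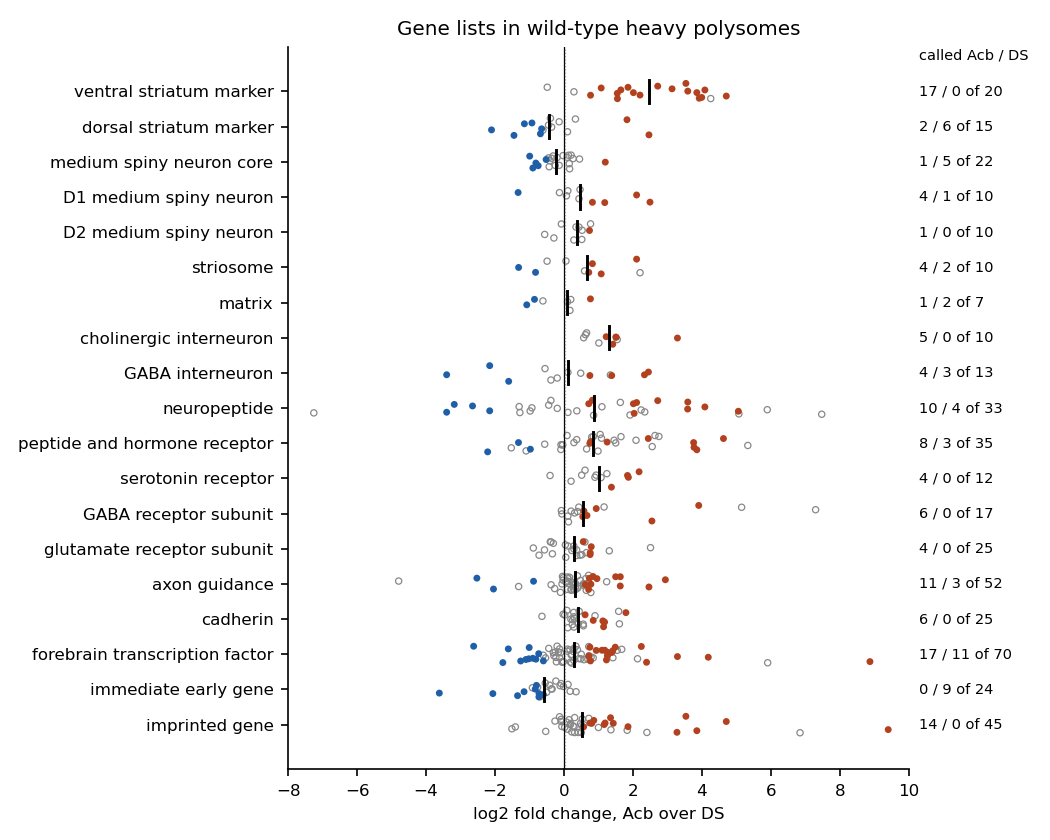
Regional difference of the members of 19 gene lists in wild-type heavy polysomes, as the log2 fold change of Acb over DS. Each point is a tested gene, the bar marks the list median, and the numbers give how many members were called higher in Acb and higher in DS. The ventral striatum list has the highest share of called members, 17 of 20.

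Among 33 tested neuropeptide and peptide hormone genes, 10 were called higher in Acb and 4 higher in DS, and the median log2 fold change was 0.86. Beside Gal, Nts, Pdyn, Cartpt, Tac1 and Penk, the first direction held Tac2, Oxt, Pnoc and Trh. Tac2, the neurokinin B precursor, was at 28.0, 30.3 and 60.0 CPM in Acb and at 4.16, 2.46 and 3.27 CPM in DS, a log2 fold change of 3.59. Oxt, the oxytocin precursor of hypothalamic neurons, was at 9.24, 10.6 and 21.1 CPM in Acb and at 2.13, 1.59 and 0 CPM in DS. For Tac2, Oxt and Gal the same library, Acb replicate 3, was the highest. Trh and Pnoc, the precursors of thyrotropin-releasing hormone and nociceptin, had log2 fold changes of 2.01 and 2.04, the last named after its value was seen.

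The peptides higher in DS are known from cortical neurons and from interneurons. Cck, cholecystokinin, was at 200.2, 207 and 221 CPM in DS and at 31.3, 15.8 and 12 CPM in Acb, a log2 fold change of -3.40 ± 0.27 (SE, edgeR adjusted p = 9.42e-07). Vip, vasoactive intestinal peptide, was at 30.1, 26.7 and 22.7 CPM in DS and at 7.46, 5.43 and 4.85 CPM in Acb, a log2 fold change of -2.15. Both were separate between regions in all libraries. Cort, cortistatin, and Grp, gastrin-releasing peptide, had log2 fold changes of -3.18 and -2.65. Sst and Npy, the peptides of a striatal interneuron class, overlapped between regions, with values of 0.11 and -0.20.

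Among 35 tested receptors for peptides and hormones, 8 were called higher in Acb and 3 higher in DS, with a median of 0.85. Trhr, the receptor for thyrotropin-releasing hormone, was at 26.3, 21.8 and 23.6 CPM in Acb and at 0.194, 2.03 and 2.66 CPM in DS. Npy2r, a neuropeptide Y receptor, was at 11.5, 18.4 and 15.9 CPM in Acb and at 0.774, 1.09 and 1.39 CPM in DS. Their log2 fold changes were 3.77 and 3.76, and both groups were wide apart. The 3 receptors higher in DS were the somatostatin receptors Sstr3 and Sstr2, with log2 fold changes of -2.21 and -1.32, and the cholecystokinin receptor Cckbr, with -0.97, and without Acb replicate 3 only 1 receptor was called in that direction.

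Of 12 serotonin receptor genes, 4 were called higher in Acb and none higher in DS, with a median of 1.0. Htr2c, which couples to phospholipase C, was at 121, 144 and 150.2 CPM in Acb and at 36.1, 42.2 and 35.3 CPM in DS, a log2 fold change of 1.87 ± 0.17 (SE, edgeR adjusted p = 2.86e-06). The lowest Acb value was well above the highest DS value. Htr4 and Htr7, which raise cyclic AMP, and Htr1b, an inhibitory presynaptic receptor, had log2 fold changes of 2.18, 1.84 and 1.38. Without Acb replicate 2, 2 serotonin receptor genes were called. Of 6 opioid and cannabinoid receptor genes, the nociceptin receptor Oprl1 was called higher in Acb, with 0.96, and Cnr1 higher in DS, and Oprl1 lost its call without DS replicate 2, DS replicate 3 or Acb replicate 3. Among 16 muscarinic and nicotinic receptor genes, 3 were called higher in Acb and 1 higher in DS. None was called higher in Acb without DS replicate 3 or without Acb replicate 3, 1 was without Acb replicate 2, and 2 were called higher in DS without DS replicate 1.

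Of 17 subunits of GABA receptors, 6 were called higher in Acb and none higher in DS, with a median of 0.55. Gabrg1, a gamma subunit of GABA-A receptors, was at 57.5, 81.0 and 100.5 CPM in Acb and at 14.1, 16.9 and 9.98 CPM in DS, a log2 fold change of 2.55 ± 0.24 (SE, edgeR adjusted p = 5.24e-06). The groups did not overlap, as was also true of Gabrq, the theta subunit, with 3.91, and Gabra2, an alpha subunit, with 0.94. The count of the list fell to 3 without DS replicate 1 or Acb replicate 2, to 2 without Acb replicate 3 and to 3 under the rescaling for length, and ranged from 2 to 8 over all alternatives. Of 25 glutamate receptor subunits, 4 were called higher in Acb, with log2 fold changes from 0.56 for Grm5 to 0.79 for Grm4, both metabotropic receptors. No member was called without DS replicate 1 or Acb replicate 2, 1 was without DS replicate 3 and 2 were without Acb replicate 3. Under the rescaling for length none was called higher in Acb and 2 were called higher in DS. With the length trend alone removed, 3 were called higher in Acb and none higher in DS.

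Calls among ion channels and second messenger enzymes were few and lay in both directions. Over all tested genes, 4.72% were called higher in Acb and 3.43% higher in DS. Among 81 potassium channel genes, 8 were called higher in Acb and 5 higher in DS, and the median of 0.03 changed sign in several alternatives, the rescaling for length among them. Without Acb replicate 2 or Acb replicate 3, 4 were called higher in Acb and 2 higher in DS, and without DS replicate 1, DS replicate 3 or Acb replicate 1, 3 were called higher in DS. Kcna5, a voltage-gated channel, was at 62.0, 61.2 and 65.4 CPM in Acb and at 19, 17.6 and 20.2 CPM in DS, a log2 fold change of 1.73 ± 0.18 (SE, edgeR adjusted p = 1.28e-05). Its values within each region were nearly equal. Kcnj5 and Kcnj6, subunits of G protein-gated inward rectifiers, went in opposite directions, with log2 fold changes of 3.52 and -1.58.

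Among 40 sodium, calcium and HCN channel genes, 5 were called higher in Acb and 4 higher in DS, and 3 were called higher in Acb without Acb replicate 2 or Acb replicate 3. Cacna2d2, a calcium channel accessory subunit, had a log2 fold change of 1.55, and Scn8a, a sodium channel of axon initial segments, -0.72. Adcy1, a calcium-stimulated adenylyl cyclase, was at 218, 248 and 286 CPM in DS and at 118, 89.8 and 105 CPM in Acb, a log2 fold change of -1.27. It was the only gene of 28 cyclases and phosphodiesterases called higher in DS, and Pde1c, a calcium-activated phosphodiesterase, was 1 of 2 called higher in Acb, with 1.42. A single gene of that list was called higher in Acb without DS replicate 3 and without any 1 of the Acb libraries. Of 20 RGS genes, 3 were called, all higher in DS, among them Rgs4 and Rgs7bp, an anchor of RGS complexes, with -1.12. The small list medians of sodium and calcium channels, of cyclases with phosphodiesterases and of RGS genes changed sign between alternatives, those of sodium and calcium channels and of RGS genes also under the rescaling for length.

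Interneurons are a small share of striatal cells and shape the output of the projection neurons. Of 10 genes of cholinergic interneurons, 5 were called higher in Acb and none higher in DS, with a median of 1.32. Slc5a7, the choline transporter, was at 20.4, 26.0 and 35.2 CPM in Acb and at 4.65, 10.4 and 13.1 CPM in DS, a log2 fold change of 1.52. Slc18a3, the vesicular acetylcholine transporter, was at 8.70, 9.14 and 9.35 CPM in Acb and at 3.58, 4.2 and 3.83 CPM in DS, a log2 fold change of 1.22. Neither overlapped between regions. Chat, the enzyme that makes acetylcholine, had overlapping values and was not called (log2 fold change 0.62, edgeR adjusted p = 0.448). Lhx8, a LIM homeodomain factor of these cells, and Ecel1, an endopeptidase-like protein, had values of 1.41 and 1.5. Only 2 members were called without DS replicate 3, Acb replicate 2 or Acb replicate 3.

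Of 13 genes of GABAergic interneurons, 4 were called higher in Acb and 3 higher in DS. Pvalb, the calcium buffer of fast-spiking cells, was at 110.2, 56.3 and 89.1 CPM in DS and at 33.2, 24.7 and 26.0 CPM in Acb, a log2 fold change of -1.60 ± 0.23 (SE, edgeR adjusted p = 2.20e-04). Calb2, the calcium buffer calretinin, was at 43.2, 50.9 and 62.0 CPM in Acb and at 12, 12 and 7.19 CPM in DS, a log2 fold change of 2.33. The 2 markers thus differed in opposite directions, each without overlap. Nkx2-1, a homeodomain factor of ventral forebrain origin, and Chodl, a lectin of a rare interneuron class, had values of 1.38 and 2.45. The members called higher in Acb fell to 2 without DS replicate 3 or Acb replicate 2 and to 1 without Acb replicate 3. The list median of 0.11 changed sign without DS replicate 2 or Acb replicate 2.

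Transcription factors of the forebrain differed in both directions. Of 70 tested, 17 were called higher in Acb and 11 higher in DS, with a median of 0.28. Zic1, a zinc finger factor of septal and ventral territories, was at 40.0, 28.8 and 41.7 CPM in Acb and at 7.26, 5.0 and 8.63 CPM in DS, a log2 fold change of 2.4 ± 0.26 (SE). Otx2, a homeodomain factor also made by the choroid plexus, had 3.74, 2.2 and 2.37 CPM in Acb and 0 reads in DS. Gbx2, a homeodomain factor of cholinergic precursors, had a log2 fold change of 3.29.

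Mef2c, a MADS-box factor of synapse development, was at 268, 354 and 286 CPM in DS and at 134, 128 and 118 CPM in Acb, a log2 fold change of -1.26 ± 0.16 (SE). Nr2f1, the nuclear receptor COUP-TFI, was at 50.7, 44.5 and 40.6 CPM in DS and at 16.5, 11.7 and 16.0 CPM in Acb, a log2 fold change of -1.61. Both were separate between regions. Otx1 and Tshz3, factors of deep layer cortical neurons among other cells, had values of -2.62 and -1.77. Without Acb replicate 3, 9 factors were called higher in Acb, and without DS replicate 3, 10 were.

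Of 24 immediate early genes, which neurons induce within minutes of activity, 9 were called higher in DS and none higher in Acb, and their median was -0.57. The count was between 5 and 11 in every alternative, with 5 without Acb replicate 3. In the rpS6P-/- polysomes 4 of 24 were called higher in DS and 1 higher in Acb, with a median of -0.26. Over all genes tested there, 10.7% were called higher in DS and 7.89% higher in Acb. Egr1, a zinc finger factor, was at 481, 496 and 612 CPM in DS and at 376, 264 and 251 CPM in Acb, a log2 fold change of -0.83 ± 0.18 (SE, edgeR adjusted p = 0.00651). It was named after its value was seen. Dusp6, a phosphatase of the kinase ERK, was at 82.9, 87.0 and 69.7 CPM in DS and at 37.1, 31.3 and 25.6 CPM in Acb, a log2 fold change of -1.35.

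Ier2 and Ier5, early response genes of the same family, had log2 fold changes of -2.06 and -1.16, and Nr4a2 is given above. Fos, the AP-1 subunit most used as an activity marker, was at 15.2, 33.5 and 23.3 CPM in DS and at 20.9, 10.3 and 18.2 CPM in Acb. Its values overlapped and it was not called (log2 fold change -0.54, edgeR adjusted p = 0.319). Cortical neurons also use many of these genes, and markers of such neurons were higher in the same DS libraries, as given with the other cell types. Their part in this result was not tested.

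Genes of axon guidance and cell adhesion place axons and hold synapses together. Of 52 guidance genes, 11 were called higher in Acb and 3 higher in DS, and the 11 became 7 without Acb replicate 3 and 6 under the rescaling for length. Beside Ntn1, Plxnc1, a semaphorin receptor, was at 82.1, 72.4 and 87.4 CPM in Acb and at 25.6, 25.9 and 26.5 CPM in DS, a log2 fold change of 1.63 ± 0.17 (SE). Its ligand Sema7a was at 131, 109 and 93.5 CPM in DS and at 28.2, 27.3 and 25.3 CPM in Acb, a log2 fold change of -2.04 ± 0.18 (SE). Receptor and ligand were thus each separate between regions, in opposite directions. Epha8, an ephrin receptor, and Unc5d, a netrin receptor, had log2 fold changes of 2.94 and 1.63, and Ntng2, a netrin-related membrane protein, and Ephb6, a kinase-dead ephrin receptor, had -2.53 and -0.88. Of 25 cadherins and protocadherins, 6 were called higher in Acb and none higher in DS, with Cdh7, Cdh4 and Pcdh10 at 1.80, 1.15 and 1.13. The count fell to 3 without DS replicate 1, without Acb replicate 2 or without Acb replicate 3.

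Cytosolic ribosomal proteins and subunits of the respiratory chain were close to even between the regions. None of 79 ribosomal protein genes was called by edgeR or DESeq2, 1 had an unadjusted p under 0.05, and the median of their log2 fold changes was -0.12. Likewise, 1 of 79 respiratory chain genes was called, higher in DS, with a median of -0.11, and it was not called when any library other than DS replicate 2 was left out. Over all alternatives at most 1 ribosomal protein gene and at most 2 respiratory chain genes were called. In the rpS6P-/- polysomes 32 of 79 ribosomal protein genes and 45 of 79 respiratory chain genes were called higher in DS, with medians of -0.47 and -0.83. The share over all genes tested there was 10.7%. In the wild-type lysates, 53 of 79 ribosomal protein genes were called higher in Acb, with a median of 0.43, against 6.54% of all genes. The difference between these comparisons was not tested for the lists.

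Imprinted genes, expressed from the allele of a single parent, were counted after the values of Dlk1, Asb4, Calcr and Peg10 had been seen, and the list is a description. Of 45 tested, 14 were called higher in Acb and none higher in DS, with a median of 0.51, and between 11 and 19 were called higher in Acb in every alternative. Peg10, a retrotransposon-derived gene, was at 318, 417 and 388 CPM in Acb and at 32.2, 35.1 and 29.5 CPM in DS, a log2 fold change of 3.54 ± 0.18 (SE, edgeR adjusted p = 2.67e-09). On chromosome 6 of GRCm38 it lies at 4747306 to 4760517, directly beside Sgce at 4674350 to 4747204 and between Calcr, at 3685678 to 3764713, and Asb4, at 5383386 to 5433022. All 4 of these genes were called higher in Acb, Sgce, a sarcoglycan, with a log2 fold change of 1.35. Other genes of that span are not described here.

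Nnat, a small membrane protein of developing neurons, was at 656, 389 and 473 CPM in Acb and at 145, 103 and 171 CPM in DS, a log2 fold change of 1.86. It lies within the span of Blcap, which was also called higher in Acb, with 1.17. Dlk1 and Dio3, the deiodinase that inactivates thyroid hormone, belong to the same imprinted domain of chromosome 12, and Dio3 had a value of 3.28. The noncoding RNA Meg3 of that domain was at 1840.5, 1101 and 1819.5 CPM in Acb and at 718, 1074 and 1502 CPM in DS. These values overlapped and Meg3 was not called (log2 fold change 0.53, edgeR adjusted p = 0.198). In the rpS6P-/- polysomes 15 of 45 imprinted genes were called higher in Acb and 1 higher in DS, and in the wild-type lysates 20 and 1 of 44. Over all genes, 7.89% were called higher in Acb in the former and 6.54% in the latter.

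Of the 11 genes named for size toward Acb, 5 lie on chromosome X: A730046J19Rik, Irs4, Dgkk, Arhgap36 and Igsf1. The chromosome was then counted as a whole, after these values were seen. Of its 577 tested genes, 59 were called higher in Acb, or 10.2%, and 4 higher in DS, or 0.693%, with a median of 0.23. On the autosomes 703 of 15534 genes were called higher in Acb and 550 higher in DS, with a median of 0.03. In the rpS6P-/- polysomes 97 of 570 chromosome X genes were called higher in Acb and 39 higher in DS, and in the wild-type lysates 81 and 19 of 548. Over all genes the shares were 7.89% and 10.7% in the knockin and 6.54% and 6.15% in the lysates.

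More chromosome X genes were called higher in Acb than in DS in every alternative. Without DS replicate 1, 44 genes were called higher in Acb and 4 higher in DS, without Acb replicate 2 the counts were 39 and 3, without Acb replicate 3 they were 29 and 3, and without DS replicate 2 they were 57 and 9. On the autosomes 407 and 355 genes were called without Acb replicate 2, and 343 and 288 without Acb replicate 3. Under the rescaling for length the counts of chromosome X were 42 and 16, with a median of 0.07. The autosomes moved as well and turned, with 478 called higher in Acb, 1049 higher in DS and a median of -0.14. The sex of the pooled mice is not given per library. Xist, which is made only in female cells, was at 1.24, 4.35 and 0.0789 CPM in Acb and at 1.16, 1.52 and 1.44 CPM in DS, and Ddx3y, a gene of the Y chromosome, was at 27.3, 23.2 and 39.1 CPM in Acb and at 18.3, 17.2 and 26.2 CPM in DS. Values of both genes overlapped between regions, and none of 5 sex chromosome markers was called by edgeR or DESeq2, with 2 at an unadjusted p under 0.05. The part of sex in the chromosome X result was not tested.

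**Figure D4:**
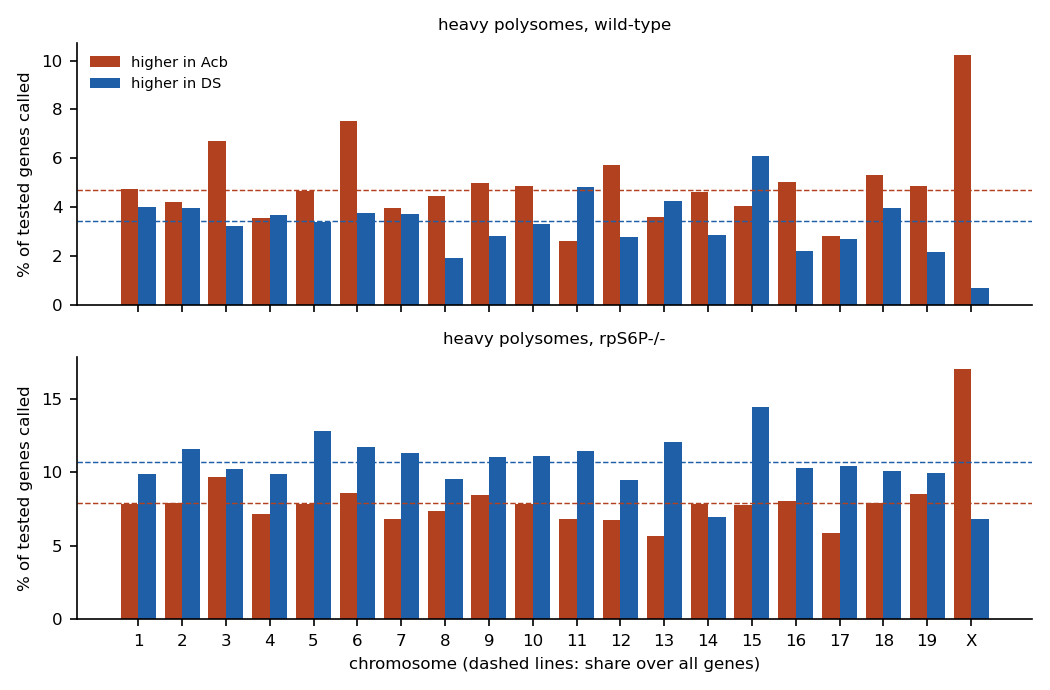
Share of tested genes called higher in Acb and higher in DS on each chromosome, in percent, for wild-type and rpS6P-/- heavy polysomes. Chromosome X has the highest share called higher in Acb among chromosomes with more than 5 tested genes, 10.2% in wild-type polysomes.

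Markers of other tissues and cell types moved with region. Of 14 genes of cortical excitatory neurons, 8 were called higher in DS and 1, the vesicular glutamate transporter Slc17a6 of subcortical neurons, higher in Acb, with a median of -2.51. Their summed level was between 1336 and 1420 CPM in DS and between 246 and 405 CPM in Acb. Slc17a7, the vesicular glutamate transporter of cortex, was at 766, 671 and 716 CPM in DS and at 176, 69.2 and 56.8 CPM in Acb, a log2 fold change of -2.83 ± 0.31 (SE). Neurod1, a defining marker of the list at low level, was at 2.32, 7.17 and 4.62 CPM in DS and at 1.46, 0.161 and 0.947 CPM in Acb, and no marker of the list was at 0 in either region. The list moved with Cck, Neurod6, Nr4a2 and the other genes higher in DS, and its part in those results was not tested.

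Toward Acb, 7 of 13 genes of choroid plexus and ependyma were called higher in Acb and none higher in DS, with a median of 2.69. Their summed level was 134 to 139 CPM in Acb and 31.1 to 38.0 CPM in DS. Ttr, the transthyretin of choroid plexus, was at 22.5, 5.86 and 5.72 CPM in Acb and at 1.65, 0.290 and 1.96 CPM in DS, so Acb replicate 1 was the highest. Otx2 and Kcne2, both on the list, had 0 reads in DS, and Folr1, the folate receptor that defines choroid plexus, had 6 reads in Acb and 4 in DS over all libraries. The list includes Prlr, and its part in that result was not tested.

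Of 12 genes of septum and hypothalamus, 5 were called higher in Acb and none higher in DS, with a median of 2.08. They were Irs4, Oxt, Zic1, Ecel1 and Slc17a6, all of which are also described elsewhere among the results. The summed level was 118 to 168 CPM in Acb and 41.0 to 47.6 CPM in DS. Hcrt and Nr5a1, which define orexin neurons and the ventromedial hypothalamus, had 0 reads in both regions, and Agrp and Prph had 3 and 7 reads in Acb and 0 in DS. The part of tissue outside the Acb in the peptide, peptide receptor and imprinted gene results was not tested.

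Glial genes also differed. Of 12 microglial genes, 9 were called higher in Acb and none higher in DS, with a median of 0.94, and their summed level was 403 to 547 CPM in Acb and 246 to 267 CPM in DS. Csf1r, the growth factor receptor of microglia, was at 29.6, 29.8 and 29.1 CPM in Acb and at 6.97, 14.3 and 15.1 CPM in DS. The Acb values were nearly equal and DS replicate 1 was the lowest. Without that library 6 of the 12 were called, without Acb replicate 2 there were 3, and over all alternatives between 3 and 10. In the rpS6P-/- polysomes 4 of the 12 were called higher in Acb, with a median of 0.44, against 7.89% of all genes tested there.

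Of 13 astrocyte genes, 7 were called higher in Acb and none higher in DS, with a median of 0.67 and a summed level of 2292 to 3229 CPM in Acb and 1427 to 1813 CPM in DS. Agt, angiotensinogen, was at 11, 23.5 and 15.7 CPM in Acb and at 0.387, 0.869 and 1.87 CPM in DS, and Slc6a11, the GABA transporter of astrocytes, was at 98.9, 159.8 and 139 CPM in Acb and at 45.0, 43.0 and 34.8 CPM in DS. The groups were separate for both genes, with log2 fold changes of 3.88 and 1.70. Without DS replicate 1, 4 astrocyte genes were called. Of 14 oligodendrocyte genes 2 were called higher in Acb, 1 without DS replicate 3 and none without DS replicate 1, Acb replicate 2 or Acb replicate 3. Their summed level did not overlap, at 5819 to 7182 CPM in Acb and 4563 to 4885 CPM in DS. In the rpS6P-/- polysomes it overlapped, at 5863 to 6418 CPM in Acb and 4158 to 6434 CPM in DS. None of 13 endothelial and mural genes was called by edgeR or DESeq2 or had an unadjusted p under 0.05, and their summed level overlapped, at 28.9 to 46.5 CPM in Acb and 29.2 to 32.6 CPM in DS. Of 9 leptomeningeal and 14 neuroblast genes, 1 and 3 were called higher in Acb, and the leptomeningeal gene was not called without DS replicate 1, DS replicate 3 or Acb replicate 2. The summed leptomeningeal level was 274 to 485 CPM in Acb and 200 to 238 CPM in DS. In the rpS6P-/- polysomes it was 149 to 248 CPM in Acb and 244 to 281 CPM in DS, with overlap.

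**Figure D5:**
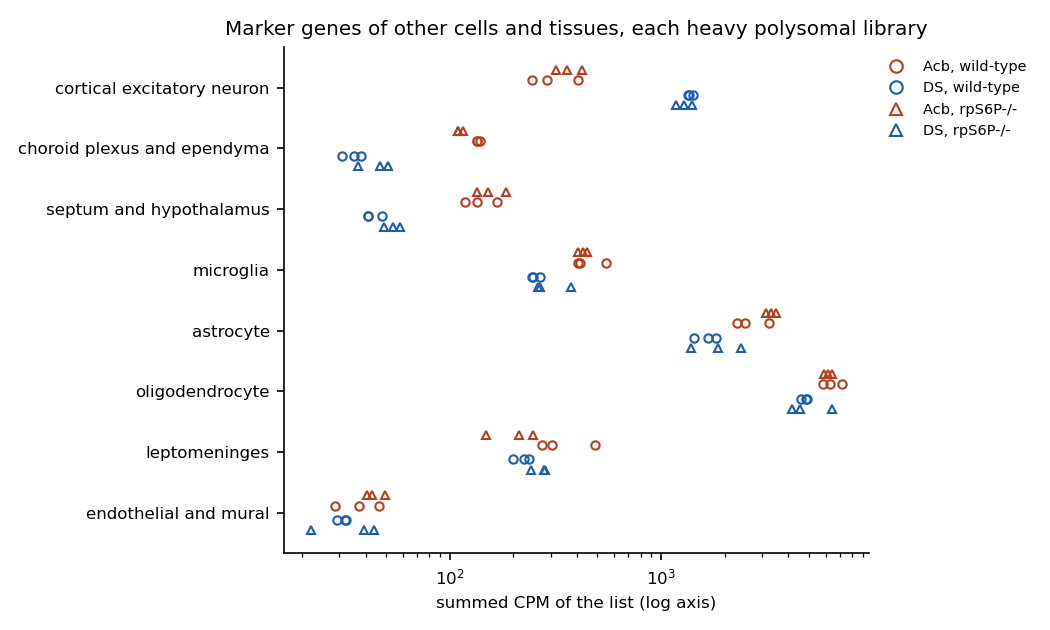
Summed level of 8 marker lists in each wild-type and rpS6P-/- heavy polysomal library, in CPM on a log axis, by region. Cortical excitatory markers were higher in the 3 DS libraries of wild-type mice. Choroid plexus, septal, microglial, astrocytic, oligodendrocyte and leptomeningeal markers were higher in the 3 Acb libraries of wild-type mice. In the knockin the oligodendrocyte and leptomeningeal sums overlapped between regions.

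The regional comparison was repeated in mice that share no animal with these, the rpS6P-/- knockin. There 16108 genes were tested, of which 1271 were called higher in Acb, or 7.89%, and 1726 higher in DS, or 10.7%. Of the 762 genes higher in Acb in wild-type polysomes, 718 had the same direction in the knockin and 432 were also called, against 2 called in the opposite direction, Nkain2 and Pigp. Nkain2, a protein that interacts with the sodium pump, and Pigp, an enzyme of GPI anchor synthesis, are named because only 2 genes met this description. Their log2 fold changes were 0.63 and 0.90 in wild-type and -0.58 and -0.71 in knockin polysomes. Of the 554 genes higher in DS, 531 had the same direction, 360 were called and none was called opposite. The median log2 fold change of the first set was 1.02 in wild-type and 0.77 in knockin polysomes, and that of the second -0.93 and -0.85. Across the 1316 genes, the log2 fold changes of both genotypes had a Spearman rho of 0.879, which describes genes chosen in the wild type.

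Among the genes named for size, Dlk1 had a log2 fold change of 5.72 in the knockin, Nts 3.43, Myl4 -3.86 and Neurod6 -4.32. The values of 1700009P17Rik, 0.57, and Adra1d, -1.64, were not called in the knockin (edgeR adjusted p = 0.522 and 0.157). Tested directly, the regional difference depended on genotype for 1 of 16880 genes, 0.00592%, by edgeR, while 2334 genes had an unadjusted p under 0.05. The gene was Ndufa3, a subunit of respiratory complex I. In wild-type mice it was at 122, 94.5 and 69.7 CPM in Acb and at 98.4, 57.2 and 83.9 CPM in DS. These values overlapped, with a log2 fold change of 0.26, and in the knockin it was -1.89, a difference of -2.12 ± 0.34 (SE, edgeR adjusted p = 0.0225). DESeq2 called 236 genes in that test.

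Whole lysates of the wild-type tissue, which come from the same mice, gave each gene's regional difference before fractionation. There 15557 genes were tested, with 1018 called higher in Acb, or 6.54%, and 957 higher in DS, or 6.15%. Of the 760 polysomal genes higher in Acb that were tested there, 747 had the same direction and 482 were called. Of the 554 higher in DS, 551 had the same direction and 447 were called, and none of either set was called in the opposite direction. Dlk1 had a log2 fold change of 5.48 in lysates, Nts 3.59, Peg10 3.18 and Myl4 -5.04.

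A test of whether the regional difference changed between lysate and polysomes called 0 of 16684 genes by edgeR, while 767 had an unadjusted p under 0.05 and DESeq2 called 1. Lysate and polysomes of a tissue sample share its number in the sample titles, and with that sample as a block edgeR called 7 genes. All 7 are named for that reason, after their values were seen. Tmem38b, an intracellular cation channel, and Cit, a kinase of cell division, were shifted toward Acb in polysomes relative to lysate, by 2.53 ± 0.25 (SE) and 1.31 ± 0.30 (SE) on the log2 scale (edgeR adjusted p = 1.11e-19 and 0.0392). In polysomes Tmem38b was at 1078, 635 and 49.6 CPM in Acb and at 61.1, 187 and 75.2 CPM in DS, so Acb replicate 3 was below every DS library. The noncoding RNA Bc1 and the ribosomal protein genes Rpl37, Rpl41 and Rplp2 were shifted toward DS, with differences of -0.76, -1.03, -0.98 and -0.94 and edgeR adjusted p from 0.00302 to 0.0479. Calcr was also shifted toward DS (edgeR adjusted p = 0.0392), but it had 0 reads in every DS lysate and its difference is given no size. Across all 3 comparisons, 346 genes were called higher in Acb each time and 304 higher in DS each time.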

How the data were processed

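Gene-level read counts were taken from the deposited table. The authors had sequenced stranded poly-A libraries in single-end reads of 50 cycles, aligned them to mm10 (GRCm38) with TopHat2 2.0.13 and Bowtie2 2.2.3, discarded reads with more than 3 mismatches and counted them by strand with HTSeq 0.6.1p1, as whole reads per gene. CASAVA 1.8.2 is also listed in the submitters' processing notes.

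Genes with at least 15 reads over the libraries of a comparison were fitted with edgeR 4.0.16 (R 4.3.3, limma 3.58.1), with scaling by the trimmed mean of M values, the quasi-likelihood F-test and Benjamini-Hochberg adjustment, and called at an adjusted p under 0.05. CPM are scaled by the same factors. Log2 fold changes are Acb over DS. Their SE was derived from the test, as the absolute log2 fold change divided by the square root of the F statistic. Only the 6 libraries of the comparison entered the fit. Figures were drawn with matplotlib 3.10.9. On simulated counts with 200 genes changed by 1.5 on the log2 scale among 15685, the test found 173 with 13 other calls. Counting error limits low genes, and the floor for a region without reads was 3 reads over its libraries.

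Replicate numbers do not pair Acb with DS samples in the labels, and deviations of same-numbered libraries correlated at 0.0674, 0.199 and -0.0271 across genes, so no block was used between regions. Lysate and polysomes of a tissue sample share a number in the titles, and deviations of these pairs correlated at -0.00634 to 0.0741. Alternatives were DESeq2 1.42.0 and its size factors, limma-voom, other filters, thinning to the smallest library, removal of the length trend, a replicate block, a minimum fold of 1.2, a fit of all 12 heavy libraries, and each library left out. The removal of the length trend together with library means and the block for the tissue sample were added after the data were seen.

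The genes named for size are called genes with at least 50 reads per library on average and no overlap, 12 per direction, ranked by the size of the log2 fold change. From each list the 4 largest called members per direction and the first 4 listed could be named. The members and lists were chosen with earlier results of these data known, and no p-value is given for a list. Positions are from RefSeq, GRCm38.p6. Rows that share a symbol (34) or carry no Entrez identifier (22) were kept as separate genes. Some genes that the rules select are not reported here.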

Additional observations from a re-analysis of the deposited data

Results flagged for a closer look

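In the main edgeR fit, Ndufa3 was the only gene whose regional difference in polysomes depended on genotype. Its difference of log2 fold changes between rpS6P-/- and wild-type mice was -2.12 ± 0.34 (SE, edgeR adjusted p = 0.0225). Its mean level was 95.4 CPM in wild-type Acb, 81.4 CPM in wild-type DS, 42.4 CPM in knockin Acb and 157 CPM in knockin DS. The log2 fold change of Acb over DS was 0.26 in wild-type mice, where it was not called, and -1.89 in the knockin. It was not called when genes were filtered by filterByExpr or when replicate 2 was left out of all groups.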

How the results depend on the processing

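The 1316 calls between regions became 2247 with a replicate block, 2291 with the block and the length trend removed, and 840 when a change over 1.2-fold was required. Leaving out 1 library gave 663 to 1392 calls, with 663 without Acb replicate 3 and 804 without Acb replicate 2. The block was fitted although the replicate numbers share only a number, and it called 1308 of the 1316 in the same direction. The other alternatives stayed within 1277 to 1741 calls, and no named gene was reversed. The regional counts in knockin polysomes (2997) and lysates (1975) stayed within 1.5 times under every alternative run, the block included. The test of lysate against polysomes gave 1 call with DESeq2, 1 with a replicate block, 7 with the tissue sample as the block and 0 to 1 with a replicate left out of all groups. The test of genotype gave 0 calls with filterByExpr, 236 with DESeq2, 479 with a replicate block and 0 to 44 with a replicate left out. The cause of these changes was not tested. The depth of 11109431 reads in DS replicate 1 limits genes of low level most.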
